A study of Saccharomyces cerevisiae with 16 samples.

Results

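The genes described here mostly encode enzymes and regulators of amino acid biosynthesis in the budding yeast *Saccharomyces cerevisiae*, and some have other roles, such as amino acid breakdown. They were taken by name, as the array's genes whose standard symbol begins with *ARG*, *HIS*, *HOM*, *THR*, *ILV*, *LEU*, *LYS*, *ARO*, *TRP* or *MET* followed by a number. This matched 77 symbols. The strain markers *TRP1*, *HIS3*, *HIS4*, *LEU2*, *LYS2* and *ARG4* were left out, which left 71 genes of the 6256 on the array. By pathway these were 20 sulfur and methionine genes, 14 aromatic genes, 10 branched chain genes, 9 arginine genes, 8 lysine genes, 5 histidine genes and 5 homoserine and threonine genes. The naming rule itself uses no expression values, but the set was chosen with earlier results of these data known.

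Yeast can make all of its amino acids from central carbon intermediates, ammonium and sulfate. The activator Gcn4 drives many of these genes when amino acids are short, and pathway regulators such as Leu3, Lys14, Arg80 and Arg81 act on smaller groups. The sulfur genes have their own activator, Met4, which lacks DNA-binding activity of its own and is brought to promoters by Met31, Met32, Cbf1 and Met28, and which the F-box protein Met30 marks with ubiquitin. Meiosis takes place in starvation medium, where a cell draws on amino acids freed from its own proteins and makes little new cell mass.

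The strains were WT (strain DSY1089) and an *ime2Δ* mutant (strain YGB221), and total RNA was taken at 0, 2, 4 and 6 h of incubation in sporulation medium, with 2 arrays for each of the 8 groups of strain and time. Ime2 is a meiosis-specific protein kinase. Both strains are SK1 diploids that share *ura3* and *lys2* mutations, *hisG* insertions in *LEU2* and in *TRP1*, a copy of *LYS2* at the *HO* locus and paired mutant alleles of *arg4* and of *his4*. In the mutant, *TRP1* replaces *IME2* on both homologues. WT cells therefore lacked a functional *TRP1* gene and *ime2Δ* cells carried one, so loss of *IME2* and gain of *TRP1* cannot be told apart in any comparison of the strains. Before induction the cells were grown in acetate medium, and the sporulation medium contained acetate with supplements for the auxotrophies. Each strain is represented by 1 isolate. The 2 replicate numbers are independent experiments, each hybridized on its own slide. WT and *ime2Δ* arrays lay in different columns of the slides, so strain and slide column cannot be told apart. Each time lay in its own row on both slides, so time and slide row cannot be told apart either.

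All 71 genes were well above background on all 16 arrays and no spot was saturated. The median signal of an array lay between 7580 and 14906 intensity units. Levels below are log2 signals relative to the median of the array, called log2 levels, and each is the level of 1 probe, so levels of different genes are not set against each other. A change, printed with its sign throughout, is the difference between the mean log2 levels of 2 groups of 2 arrays, with its standard error (SE) from limma fitted to all arrays, and a gene passed where its adjusted p, taken over 6254 genes, was under 0.05. The arrays report RNA of whole cultures relative to the other transcripts, so a change in every cell and a change in a share of the cells cannot be told apart. As a check of the labels, 9 of 10 early meiotic genes rose in WT cells at 2, 4 and 6 h, and 9, 10 and 10 of them rose in *ime2Δ* cells. *IME2* itself was at a log2 level of 2.48 to 5.43 in the WT arrays and of -11.99 to -11.12 in the *ime2Δ* arrays, and *TRP1* at -1.55 to 0.41 and at 0.49 to 1.63.

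Most of the amino acid biosynthesis genes were lower at 4 and 6 h than at 0 h in WT cells, and the genes for sulfate assimilation rose at 2 h in both strains. At 2 h in WT cells, 20 of the 71 genes were higher than at 0 h and 12 were lower, so that 45.1% passed where 49.4% of all genes did (22.2% higher and 27.2% lower). At 4 h, 10 were higher and 38 lower, where 62.5% of all genes passed (30.7% higher and 31.8% lower). At 6 h, 13 were higher and 39 lower, where 71.0% of all genes passed (35.3% higher and 35.7% lower). The share that passed was therefore near that of the whole array at each time, while the direction was not. Of these genes 53.5% were lower at 4 h and 54.9% at 6 h. Their median changes were -0.04, -0.77 and -0.87 at 2, 4 and 6 h, where the medians of all genes were -0.10, -0.02 and -0.01. The 3 comparisons share the 0 h arrays.

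In *ime2Δ* cells, 24 genes were higher and 6 lower at 2 h, where 39.7% of all genes passed (17.6% higher and 22.1% lower). At 4 h 20 were higher and 13 lower, where 50.3% of all genes passed (23.4% higher and 26.9% lower). At 6 h 17 were higher and 24 lower, where 54.7% of all genes passed (24.5% higher and 30.1% lower). The median change was 0.21, -0.01 and -0.32 at the 3 times. The replicates differed in the sign of the median over the 71 genes in WT cells at 2 h, with 0.22 for replicate 1 and -0.26 for replicate 2, and in *ime2Δ* cells at 4 h, with 0.31 and -0.25. Of the 38 genes that were lower in WT cells at 4 h, 12 were also lower in *ime2Δ* cells, 25 did not pass there and 1 was higher. Scaling the arrays to their 75th percentile moved these splits toward higher, to 25 and 4 in WT cells at 2 h and to 31 and 2, 24 and 9, and 20 and 16 in *ime2Δ* cells at 2, 4 and 6 h. Under quantile normalization the split at 2 h was 21 and 6 for WT cells and 25 and 2 for *ime2Δ* cells, and that of *ime2Δ* cells at 6 h was 16 and 16. The WT count at 2 h of 32 rested partly on single arrays, since it was 16 without WT 0 h replicate 2 and 19 without WT 2 h replicate 2, and the *ime2Δ* count at 4 h of 33 was 21 without *ime2Δ* 4 h replicate 2.

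**Figure D1:**
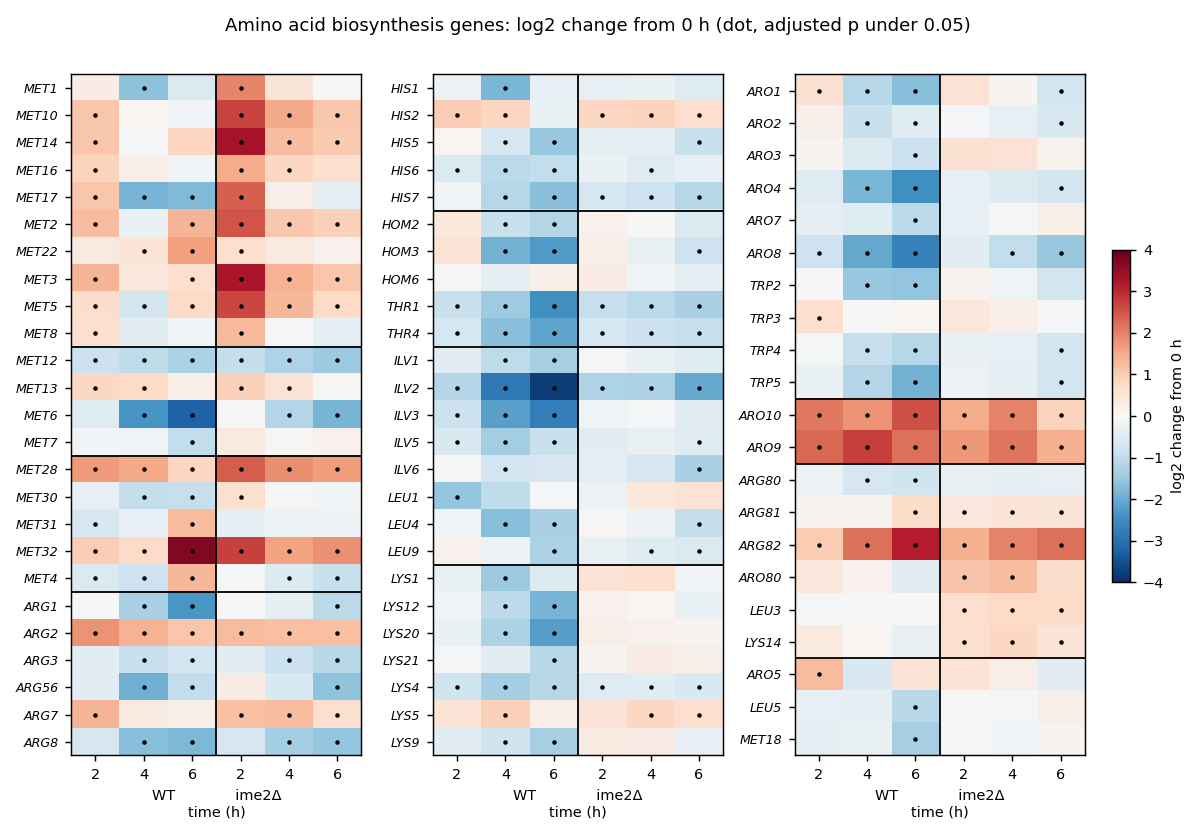
Log2 change from 0 h of each of the 71 genes (rows, grouped by role with black lines between groups) at 2, 4 and 6 h in WT and *ime2Δ* cells (columns), each the difference of means of 2 arrays, from blue (lower) to red (higher), with a dot where the adjusted p was under 0.05. The sulfate assimilation genes at the top left are red at 2 h in both strains and deeper in *ime2Δ*, and most enzyme genes of the other pathways are blue in WT at 4 and 6 h.

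The genes for sulfate assimilation and homocysteine synthesis rose early, and 7 of these 10 were at a higher level in *ime2Δ* than in WT cells at 2 h. They encode the path from sulfate through sulfide to homocysteine. This role group, like the others below, was picked after the values were seen. All 10 rose in *ime2Δ* cells at 2 h, with a median change of 2.45, and 8 rose in WT cells, with a median of 1.00. Of all 20 sulfur and methionine genes, 14 were higher and 1 lower in *ime2Δ* cells, and 11 were higher and 3 lower in WT cells. Of all genes, 17.6% were higher in *ime2Δ* cells and 22.2% in WT cells. *MET3*, which encodes ATP sulfurylase, the first step, had log2 levels of -0.33 and -0.66 in the *ime2Δ* arrays at 0 h, 2.67 and 2.88 at 2 h, 1.07 and 0.75 at 4 h and 0.67 and 0.57 at 6 h. In WT cells its levels were -0.26 and -1.06 at 0 h, 0.65 and 0.71 at 2 h, -0.29 and -0.22 at 4 h and 0.07 and -0.04 at 6 h. The strains overlapped at 0 h and were well apart at 2 h. The *MET3* change to 2 h was 3.27 in *ime2Δ* cells (SE 0.23, adjusted p = 1.1e-06), a 9.63-fold rise, and 1.35 in WT cells (adjusted p = 0.00043).

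*MET14*, which encodes the next enzyme, APS kinase, rose from -1.15 and -0.22 to 2.05 and 3.18 in *ime2Δ* cells by 2 h, a change of 3.30 (SE 0.39, adjusted p = 5.1e-05). In WT cells it went from 0.07 and -0.15 to 0.72 and 1.42, a change of 1.11 (adjusted p = 0.033). Replicate 2 was the higher *ime2Δ* array at both times. *MET16*, for PAPS reductase, changed less, by 1.49 in *ime2Δ* cells and 0.90 in WT cells (SE 0.26, adjusted p = 0.00078 and 0.012).

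*MET5* and *MET10* encode the subunits of sulfite reductase, and both rose at 2 h in both strains. In WT cells at 6 h *MET5* was higher than at 0 h, while *MET10*, at 0.13 and 0.23, did not pass against 0 h. *MET5* levels in *ime2Δ* cells were -0.23 and 0.49 at 0 h, 2.65 and 2.93 at 2 h, 1.67 and 1.26 at 4 h and 0.87 and 1.01 at 6 h. In WT cells they were 0.73 and 0.68, then 1.25 and 1.59, then 0.05 and -0.10, then 1.25 and 1.72. WT cells thus had a trough at 4 h that *ime2Δ* cells lacked. *MET10* rose from -0.02 and 0.30 to 2.80 and 2.91 in *ime2Δ* cells and from 0.40 and 0.18 to 1.49 and 1.29 in WT cells, changes of 2.71 and 1.10 (SE 0.20, adjusted p = 1.4e-06 and 0.00066). The changes of *MET5* to 2 h were 2.66 and 0.72 (SE 0.25, adjusted p = 8.9e-06 and 0.031). *MET1*, which makes the siroheme cofactor of this enzyme, rose by 1.96 in *ime2Δ* cells (SE 0.57, adjusted p = 0.016), and its change in WT cells was 0.28 (adjusted p = 0.70).

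*MET2*, for homoserine acetyltransferase, and *MET17*, for homocysteine synthase, join the sulfur to the carbon chain. *MET2* rose from -0.31 and 0.18 to 2.18 and 2.70 in *ime2Δ* cells and from 0.02 and -0.00 to 1.31 and 1.20 in WT cells, by 2.50 and 1.25 (SE 0.28, adjusted p = 3e-05 and 0.0025). *MET17* levels were 1.56 and 2.50 at 0 h in *ime2Δ* cells, 4.30 and 4.55 at 2 h, 2.31 and 2.25 at 4 h and 1.34 and 1.99 at 6 h. In WT cells they were 2.03 and 1.77, then 3.17 and 2.87, then -0.00 and 0.09, then 0.51 and -0.26. *MET17* therefore rose in both strains at 2 h, by 2.40 and 1.12 (SE 0.32, adjusted p = 0.00011 and 0.011). Only in WT cells was it below its 0 h arrays at 4 h, by -1.86 (adjusted p = 0.00023), and the changes of the strains differed by -2.11 (SE 0.45, adjusted p = 0.0077).

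**Figure D2:**
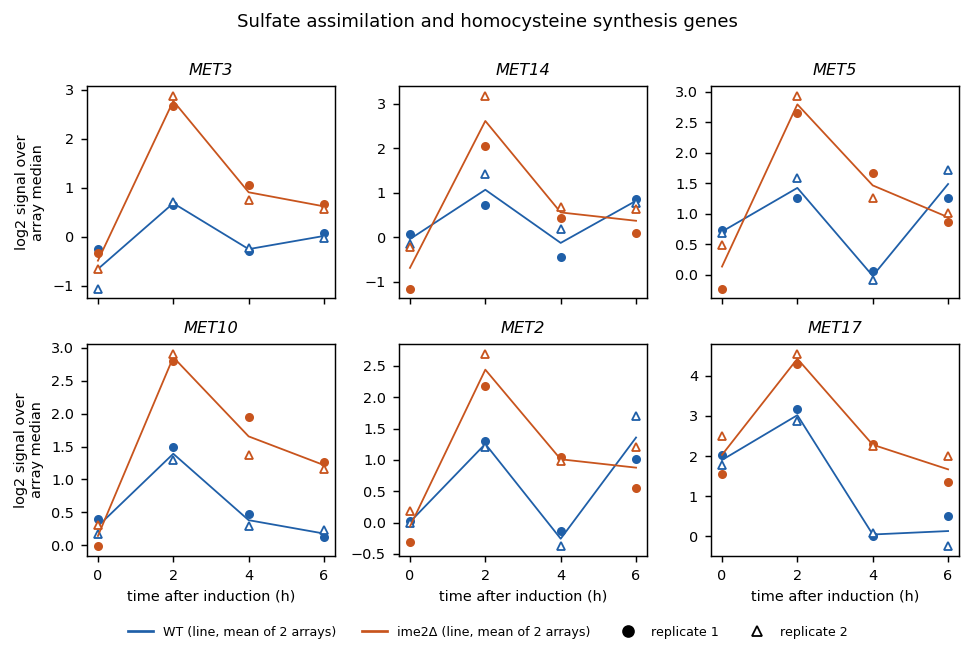
Log2 signal over the array median (y axis, its own scale in each panel) of 6 sulfate assimilation and homocysteine synthesis genes against time in sporulation medium in hours (x axis), with points for replicates 1 and 2 and lines for the mean of the 2 arrays. Each gene peaks at 2 h in *ime2Δ* (orange) above the WT arrays (blue), and all but *MET10* have a WT mean at 6 h above that at 4 h, by little in *MET3* and *MET17*.

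The rise was followed by a fall. Between 2 and 6 h, 8 of these 10 genes fell in *ime2Δ* cells, with a median change of -1.77, where 9.99% of all genes passed. Over all 71 genes, 19 were lower and 0 higher in this comparison, against 4.29% of all genes lower and 5.71% higher. The decreases were -2.76 for *MET17* (adjusted p = 0.00036), -2.24 for *MET14* (adjusted p = 0.0035) and -2.16 for *MET3* (adjusted p = 0.00025). The count of 19 was 11 without *ime2Δ* 2 h replicate 2 and 12 without *ime2Δ* 6 h replicate 1. In WT cells 5 of the 10 fell between 2 and 6 h and 1 rose, within 44 lower and 7 higher over all 71 genes, where 62.9% of all genes passed, 32.5% lower and 30.4% higher.

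Both sulfate permease genes rose as well. *SUL1*, which is not among the 71 genes, was at -2.88 and -2.96 in *ime2Δ* cells at 0 h and at 1.64 and 1.92 at 2 h, and at -3.65 and -3.52 and then -0.33 and -0.29 in WT cells. Its changes were 4.70 and 3.27 (SE 0.27, adjusted p = 2e-07 and 1.7e-06). *SUL2* rose by 2.27 and 1.12 (SE 0.36, adjusted p = 0.00036 and 0.019). Genes that use homocysteine and methionine to make cysteine and S-adenosylmethionine were not among those that rose at 2 h. *CYS3*, for cystathionine gamma-lyase, changed by -1.57 in WT cells at 2 h (SE 0.22, adjusted p = 8.7e-05) and by -0.48 in *ime2Δ* cells (adjusted p = 0.099), and *SAM1* fell by -1.59 and -0.80 (SE 0.28, adjusted p = 0.00047 and 0.035).

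*MET6*, which encodes methionine synthase, the last step to methionine, did not pass at 2 h in either strain, with changes of -0.53 in WT and 0.03 in *ime2Δ* cells. Its levels in WT cells were 3.14 and 3.17 at 0 h, 2.64 and 2.61 at 2 h, 1.01 and 0.57 at 4 h and -0.63 and 0.48 at 6 h. In *ime2Δ* cells they were 3.35 and 3.77, 3.40 and 3.78, 2.69 and 2.10, and 1.45 and 1.96. The change to 6 h was -3.23 in WT cells (SE 0.33, adjusted p = 1.8e-06), a 9.38-fold decrease, and -1.86 in *ime2Δ* cells (adjusted p = 0.00049), and these differed by -1.37 (SE 0.47, adjusted p = 0.029). *MET12* and *MET13* both encode methylenetetrahydrofolate reductase, which supplies the methyl group, and they moved in opposite directions at 2 h. *MET12* fell by -0.85 in WT and -0.95 in *ime2Δ* cells (SE 0.21, adjusted p = 0.0057 and 0.0036), and *MET13* rose by 0.83 and 0.94 (SE 0.20, adjusted p = 0.0038 and 0.0023). The *MET12* call in WT cells did not pass without WT 0 h replicate 1. *MET7*, for folylpolyglutamate synthetase, fell at 6 h in WT cells by -0.98 (SE 0.22, adjusted p = 0.0012), and its change in *ime2Δ* cells was 0.18 (adjusted p = 0.50).

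Of the 5 regulators of the sulfur genes, *MET4*, *MET31* and *MET32* were higher at 6 h than at 2 h in WT cells, and *MET28* and *MET30* were lower. *MET32*, which encodes a zinc finger protein that brings Met4 to DNA, was at -1.44 and -1.71 in WT cells at 0 h, -0.55 and -0.66 at 2 h, -0.80 and -0.80 at 4 h and 2.07 and 2.19 at 6 h. Its *ime2Δ* levels were -2.95 and -2.04, -0.03 and 0.51, -0.88 and -0.88, and -0.77 and -0.54. The *ime2Δ* arrays peaked at 2 h and the WT arrays at 6 h. The change to 6 h was 3.71 in WT cells (SE 0.26, adjusted p = 5.9e-08), a 13.1-fold rise, and 1.84 in *ime2Δ* cells (adjusted p = 8.2e-05). These differed by 1.87 (SE 0.37, adjusted p = 0.0013).

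*MET4*, for the activator itself, was at 0.25 and 0.50 in WT cells at 0 h, -0.19 and -0.22 at 2 h, -0.36 and -0.52 at 4 h and 1.47 and 1.92 at 6 h. Its *ime2Δ* levels were 0.17 and 0.69, 0.32 and 0.42, -0.00 and -0.26, and -0.53 and -0.37. At 6 h the strains had moved in opposite directions from 0 h, by 1.32 in WT (SE 0.21, adjusted p = 7.9e-05) and -0.88 in *ime2Δ* cells (adjusted p = 0.0033). *MET31*, a close relative of *MET32*, was at -0.08 and -0.08 in WT cells at 0 h and at 0.99 and 1.40 at 6 h, against -0.35 and -0.43 and then -0.40 and -0.78 in *ime2Δ* cells. It rose by 1.28 in WT cells (SE 0.19, adjusted p = 4.1e-05), and its change in *ime2Δ* cells was -0.20 (adjusted p = 0.39).

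*MET22* encodes the phosphatase that removes the adenosine bisphosphate left by sulfate reduction, and its WT arrays were highest at 6 h. Its WT levels were -1.35 and -1.26 at 0 h, -0.96 and -0.93 at 2 h, -0.76 and -0.79 at 4 h and 0.12 and 0.56 at 6 h, and its *ime2Δ* levels at 6 h were -1.32 and -1.03. The change in WT cells at 6 h was 1.65 (SE 0.18, adjusted p = 3.3e-06) and in *ime2Δ* cells 0.16 (adjusted p = 0.48). *MET28*, for the bZIP cofactor of Met4, rose at every time in both strains, by 1.70, 1.53 and 0.86 in WT cells and by 2.42, 1.87 and 1.68 in *ime2Δ* cells (SE 0.24). *MET30*, for the F-box protein that acts on Met4, was at 1.93 and 1.89 in WT cells at 0 h and at 1.00 and 0.99 at 6 h, a change of -0.92 (SE 0.17, adjusted p = 0.00039). The *ime2Δ* levels were 1.74 and 2.12 and then 1.87 and 1.80, a change of -0.10 (adjusted p = 0.66). At 6 h in WT cells 4 of the 5 regulator genes were thus higher than at 0 h and 1 lower, and in *ime2Δ* cells 2 were higher and 1 lower.

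**Figure D3:**
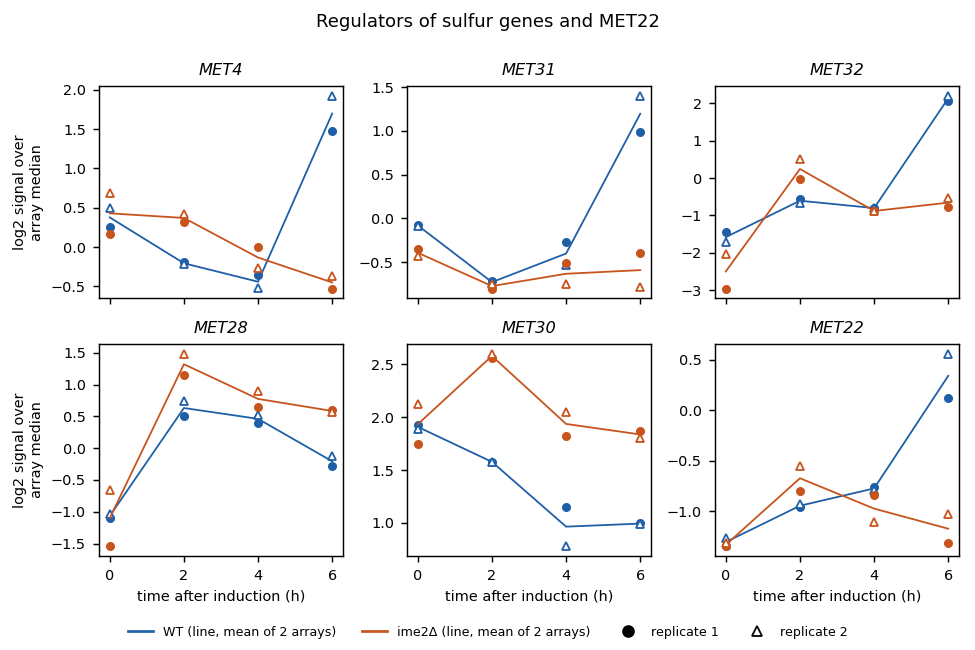
Log2 signal over the array median (y axis, its own scale in each panel) of *MET4*, *MET31*, *MET32*, *MET28*, *MET30* and *MET22* against time in hours (x axis), with points for replicates 1 and 2 and lines for the mean of the 2 arrays. *MET4*, *MET31*, *MET32* and *MET22* have WT arrays (blue) at 6 h above those at 4 h and above the *ime2Δ* arrays (orange) at 6 h, *MET32* is also a little higher at 6 h than at 4 h in *ime2Δ*, and *MET30* stays higher in *ime2Δ* from 2 h on.

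The enzymes of the other pathways largely fell in WT cells from 4 h. Of 41 such genes, 30 were lower and 3 higher at 4 h, and 31 were lower and 1 higher at 6 h, with medians of -1.06 and -1.18. In *ime2Δ* cells 10 were lower and 4 higher at 4 h, and 21 were lower and 4 higher at 6 h, with medians of -0.28 and -0.59. Of all genes, 31.8% and 35.7% were lower in WT cells at 4 and 6 h, and 26.9% and 30.1% in *ime2Δ* cells. The 41 genes were grouped by role after their values were seen. At 2 h, 27.2% of genes array-wide passed as lower and 22.2% as higher in WT. The mutant's shares were 22.1% and 17.6%. Of the 41 genes, 9 were lower and 5 higher at 2 h in WT, against 5 lower and 3 higher in *ime2Δ* cells. Their medians at this time were -0.13 and -0.06. These medians depended on the replicate. Taken between same-numbered arrays, replicates 1 and 2 gave 0.13 and -0.48 in WT cells at 2 h, and the *ime2Δ* values were 0.16 and -0.18 at 2 h and 0.02 and -0.60 at 4 h. The most negative of these early changes in WT cells were -1.56 for *LEU1*, -1.18 for *ILV2*, -0.89 for *THR1* and -0.87 for *ILV3*. In *ime2Δ* cells *ILV2*, *THR1* and *HIS7* changed by -1.22, -0.93 and -0.70. Of these calls only that of *ILV2* held in both strains under both other scalings and without any 1 array.

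In the branched chain pathway, none of the 8 enzyme genes was higher in WT cells at 2, 4 or 6 h than at 0 h. At 4 h 6 were lower, among them *ILV6* but not *LEU9*, and at 6 h 6 were lower, among them *LEU9* but not *ILV6*. Of all genes, 31.8% were lower and 30.7% higher at 4 h, and 35.7% and 35.3% at 6 h. *ILV2* encodes the catalytic subunit of acetolactate synthase, the first common step to valine and isoleucine. Its WT levels were 4.34 and 4.33 at 0 h, 3.28 and 3.02 at 2 h, 1.51 and 1.43 at 4 h and 0.27 and 0.84 at 6 h, and its *ime2Δ* levels were 4.26 and 4.40, 2.94 and 3.28, 3.50 and 2.64, and 2.32 and 2.33. The arrays of both strains were lower at 2 h than at 0 h, and at 4 h the WT arrays lay below all the *ime2Δ* arrays. By 6 h it had changed by -3.78 in WT cells (SE 0.26, adjusted p = 4.9e-08), a 13.7-fold decrease, and -2.01 in *ime2Δ* cells (adjusted p = 4e-05). *ILV6* encodes the regulatory subunit of the same enzyme. Its changes at 6 h were -0.68 in WT cells (SE 0.30, adjusted p = 0.062) and -1.29 in *ime2Δ* cells (adjusted p = 0.0032).

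*ILV3*, for dihydroxyacid dehydratase, was at 3.40 and 3.83 in WT cells at 0 h, 2.75 and 2.75 at 2 h, 1.24 and 1.62 at 4 h and 0.72 and 0.97 at 6 h. Its *ime2Δ* levels were 2.71 and 3.47, 2.82 and 3.02, 3.29 and 2.76, and 2.46 and 2.84, which overlapped between times. The change to 6 h was -2.78 in WT cells (SE 0.27, adjusted p = 1.1e-06) and -0.44 in *ime2Δ* cells (adjusted p = 0.19). *LEU4* and *LEU9* both encode isopropylmalate synthase, the entry to leucine, and fell by -1.30 and -1.25 in WT cells at 6 h (SE 0.27 and 0.17, adjusted p = 0.00073 and 2.3e-05). *LEU4* was already lower at 4 h, by -1.70 (adjusted p = 0.00012), when the change of *LEU9* was -0.23 (adjusted p = 0.25). *LEU1*, for the next enzyme, isopropylmalate isomerase, had a dip instead. It was at 2.64 and 3.36 in WT cells at 0 h, 1.04 and 1.85 at 2 h, 1.30 and 2.64 at 4 h and 2.49 and 3.37 at 6 h, with replicate 2 higher each time. It fell by -1.56 to 2 h (SE 0.47, adjusted p = 0.015) and rose by 1.49 from 2 to 6 h (adjusted p = 0.014), and the fall did not pass in 2 of the fits that left out 1 array.

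The aspartate family showed the same direction. *HOM3*, for aspartate kinase, which opens the path to threonine and methionine, was at 2.42 and 3.08 in WT cells at 0 h, 3.49 and 3.16 at 2 h, 1.11 and 0.60 at 4 h and 0.58 and 0.37 at 6 h. The *ime2Δ* levels were 2.98 and 3.58, 3.15 and 3.82, 3.28 and 2.70, and 2.31 and 2.59. From 2 to 4 h the WT arrays dropped below all the *ime2Δ* arrays. By 6 h it had changed by -2.27 in WT (SE 0.31, adjusted p = 2.6e-05) and -0.83 in *ime2Δ* cells (adjusted p = 0.040). *THR1*, for homoserine kinase, and *THR4*, for threonine synthase, fell in WT cells at 6 h by -2.45 and -2.12 (SE 0.30 and 0.23, adjusted p = 7.5e-06 and 2.4e-06), and in *ime2Δ* cells by -1.29 and -0.92 (adjusted p = 0.0027 and 0.0041). *HOM6*, for homoserine dehydrogenase, did not pass in either strain, with changes of 0.19 and -0.40.

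*LYS20* and *LYS21* both encode homocitrate synthase, the entry to lysine. *LYS20* was at 2.23 and 2.05 in WT cells at 0 h, 2.15 and 1.58 at 2 h, 1.15 and 0.58 at 4 h and 0.32 and -0.44 at 6 h, and at 2.11 and 1.86, 2.48 and 1.97, 2.80 and 1.51, and 2.27 and 1.92 in *ime2Δ* cells. *LYS21* was at 2.27 and 2.25 in WT cells at 0 h and at 1.33 and 1.00 at 6 h, and at 2.35 and 2.27 and then 2.64 and 2.45 in *ime2Δ* cells. Both genes fell in WT cells, by -2.20 and -1.10 (SE 0.39 and 0.18, adjusted p = 0.00022 and 9.2e-05). Their changes in *ime2Δ* cells were 0.11 and 0.23 (adjusted p = 0.82 and 0.28), and the strains differed in both changes, by -2.31 and -1.33 (SE 0.55 and 0.25, adjusted p = 0.0041 and 0.00088). *LYS1*, for saccharopine dehydrogenase at the end of the pathway, dipped at 4 h in WT cells by -1.44 (SE 0.30, adjusted p = 0.0011), and its change at 6 h was -0.54 (adjusted p = 0.13). *LYS5*, whose product activates another enzyme of the pathway, rose at 4 h by 0.94 in WT cells and 0.82 in the mutant (SE 0.22, adjusted p = 0.0022 and 0.0079).

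Of 6 arginine enzyme genes, 4 were lower and 1 higher at 6 h in WT cells, and 4 were lower and 2 higher in *ime2Δ* cells. Array-wide, 35.7% of genes passed as lower and 35.3% as higher in WT by 6 h. For the mutant these shares were 30.1% and 24.5%. *ARG1*, for argininosuccinate synthetase, fell by -2.34 in WT cells (SE 0.18, adjusted p = 1.2e-07) and by -1.08 in *ime2Δ* cells (adjusted p = 0.00025). *ARG2*, for acetylglutamate synthase, the first step, went the other way. It was at -1.71 and -1.37 in WT cells at 0 h, 0.32 and 0.17 at 2 h, -0.28 and -0.02 at 4 h and -0.44 and -0.45 at 6 h, and at -1.34 and -1.07, -0.14 and 0.26, -0.09 and 0.11, and 0.02 and -0.01 in *ime2Δ* cells. It rose at every time in both strains, by 1.78 and 1.27 at 2 h (SE 0.19, adjusted p = 1.2e-05 and 0.00025). *ARG56*, for the precursor of the next enzymes, fell in WT cells by -1.91 at 4 h and by -0.98 at 6 h (SE 0.24, adjusted p = 1.9e-05 and 0.0027), and in *ime2Δ* cells by -1.62 at 6 h (adjusted p = 0.00012).

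In the histidine pathway 4 of 5 genes were lower and 1 higher at 4 h in WT cells, where 31.8% of all genes were lower and 30.7% higher. *HIS1*, for the first enzyme, was at 1.66 and 1.97 in WT cells at 0 h, 1.83 and 1.31 at 2 h, -0.33 and 0.32 at 4 h and 1.35 and 1.62 at 6 h. It fell by -1.82 at 4 h (SE 0.27, adjusted p = 7.6e-05), and its change at 6 h was -0.33 (adjusted p = 0.30). *HIS7*, for a middle step, fell at 6 h by -1.69 in WT cells and -1.15 in the mutant (SE 0.22, adjusted p = 1.3e-05 and 0.00070). *HIS2*, for histidinol phosphatase, rose at 2 h by 1.03 in WT cells and 0.85 in the mutant (SE 0.17, adjusted p = 0.00032 and 0.0017).

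Of the 10 aromatic enzyme genes, 9 were lower and none higher at 6 h in WT cells, with a median of -1.37, and 6 were lower in *ime2Δ* cells, with a median of -0.74. Over the whole array at 6 h, 35.7% of genes were lower and 35.3% higher in WT cells, and 30.1% were lower in *ime2Δ* cells. *ARO3* and *ARO4* encode the paired DAHP synthases that open the pathway. *ARO4* was at 3.91 and 4.31 in WT cells at 0 h, 3.76 and 3.42 at 2 h, 2.46 and 2.08 at 4 h and 1.82 and 1.52 at 6 h, and at 3.65 and 4.08, 3.37 and 3.73, 3.69 and 2.93, and 2.89 and 3.36 in *ime2Δ* cells. It fell by -2.44 in WT cells at 6 h (SE 0.28, adjusted p = 5.4e-06) and by -0.74 in *ime2Δ* cells (adjusted p = 0.042). *ARO3* fell by -0.87 in WT cells (SE 0.32, adjusted p = 0.026), a call lost in 3 of the fits without 1 array, and its change in *ime2Δ* cells was 0.13 (adjusted p = 0.74). *ARO8*, for aromatic aminotransferase I, fell by -2.70 and -1.52 (SE 0.25, adjusted p = 6e-07 and 0.00024).

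The tryptophan branch is the place where the strains differ in genotype beyond *IME2*. *TRP5*, for tryptophan synthase, was at 1.90 and 2.13 in WT cells at 0 h and -0.13 and 0.37 at 6 h, and at 2.28 and 2.39 and then 1.53 and 1.66 in *ime2Δ* cells. It fell by -1.89 and -0.74 (SE 0.21, adjusted p = 3.3e-06 and 0.0096). *TRP2*, for anthranilate synthase, fell by -1.58 in WT cells (SE 0.33, adjusted p = 0.00082), and *TRP4*, for the next enzyme, by -1.15 (SE 0.19, adjusted p = 0.00014). The change of *TRP3* in WT cells was 0.08 (adjusted p = 0.78). None of the 4 passed between the strains at 0 h, with differences of WT from *ime2Δ* of -0.31, -0.16, -0.22 and -0.32 for *TRP2*, *TRP3*, *TRP4* and *TRP5*.

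**Figure D4:**
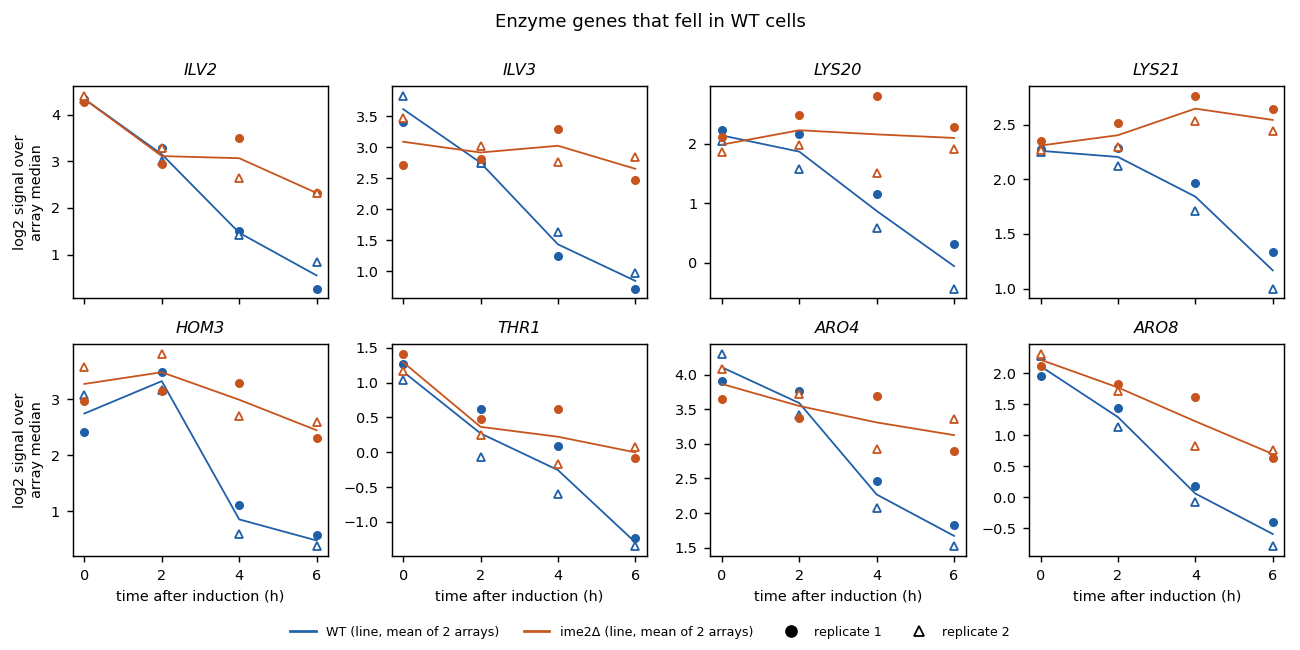
Log2 signal over the array median (y axis, its own scale in each panel) of 8 enzyme genes that fell in WT cells against time in hours (x axis), with points for replicates 1 and 2 and lines for the mean of the 2 arrays. WT (blue) and *ime2Δ* (orange) arrays lie close together at 0 and 2 h and apart at 6 h, with WT lower in each panel.

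Genes of aromatic amino acid breakdown rose in both strains. *ARO9* encodes the second aromatic aminotransferase and *ARO10* phenylpyruvate decarboxylase, which act in the catabolism of these amino acids. *ARO9* was at 0.53 and 0.31 in WT cells at 0 h, 2.97 and 2.45 at 2 h, 3.09 and 3.30 at 4 h and 2.73 and 2.52 at 6 h, and at 0.25 and -0.23, 2.06 and 1.46, 2.18 and 2.10, and 1.41 and 1.49 in *ime2Δ* cells. It rose by 2.29 and 1.75 at 2 h (SE 0.24, adjusted p = 1e-05 and 0.00013). *ARO10* was at 1.47 and 0.98 in WT cells at 0 h, 3.49 and 3.21 at 2 h and 3.40 and 4.20 at 6 h, and at 1.69 and 1.12, 3.07 and 2.73, and 2.19 and 2.38 in *ime2Δ* cells. It rose at 6 h by 2.57 in WT cells and 0.88 in the mutant (SE 0.27, adjusted p = 2.4e-06 and 0.016), and these changes differed by 1.69 (SE 0.39, adjusted p = 0.0033). *ARO80*, for the activator of both genes, changed by 0.46 in WT cells at 2 h (SE 0.32, adjusted p = 0.25) and by 1.14 in *ime2Δ* cells (adjusted p = 0.014), a call lost in 3 of the fits without 1 array.

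Among the regulators of the other pathways, *ARG82* rose furthest in WT cells at 6 h. Its product is an inositol polyphosphate kinase that also takes part in arginine control. It was at -2.17 and -2.37 in WT cells at 0 h, -1.26 and -1.26 at 2 h, -0.31 and 0.18 at 4 h and 0.64 and 1.10 at 6 h, and at -2.30 and -2.60, -0.89 and -1.15, -0.61 and -0.29, and -0.03 and -0.45 in *ime2Δ* cells. The WT arrays of each time lay above those of the time before, and in *ime2Δ* cells the arrays of 4 h and 6 h overlapped. By 6 h it had risen by 3.14 in WT and 2.20 in *ime2Δ* cells (SE 0.23, adjusted p = 8.9e-08 and 7.8e-06). *ARG80* fell by -0.81 at 6 h in WT cells (SE 0.20, adjusted p = 0.0027) and *ARG81* rose by 0.73 (SE 0.16, adjusted p = 0.0014). *LEU3* and *LYS14* did not pass at 2, 4 or 6 h in WT cells, with changes of 0.02 and -0.30 at 6 h. In *ime2Δ* cells at 6 h they rose by 0.76 and 0.53 (SE 0.18, adjusted p = 0.0032 and 0.023).

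Of the genes with other roles, *MET18*, for a protein of iron-sulfur cluster assembly, and *LEU5*, for a mitochondrial carrier, fell by -1.34 and -1.11 at 6 h in WT cells (SE 0.23 and 0.32, adjusted p = 0.00014 and 0.0077). Their changes in *ime2Δ* cells were 0.12 and 0.23 (adjusted p = 0.68 and 0.57). *ARO5* rose at 2 h in WT cells, by 1.25 (SE 0.36, adjusted p = 0.011).

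*GCN4*, the general control activator, passed in none of the 15 comparisons. Its levels were 4.31 and 4.61 in WT cells at 0 h and 4.37 and 4.55 at 6 h, and 4.55 and 4.77 and then 4.88 and 4.68 in *ime2Δ* cells. The change to 6 h was -0.00 in WT cells (SE 0.23, adjusted p = 0.999) and 0.12 in *ime2Δ* cells (adjusted p = 0.67). Gcn4 is known to be controlled mainly in its translation, which arrays do not measure.

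The strains were compared directly at each time, as WT minus *ime2Δ*. At 0 h none of the 71 genes passed in limma, with 11 at an unadjusted p under 0.05, where 4.67% of all genes passed (3.26% higher and 1.41% lower). With the replicate number as a block, 6 passed, of which 4 were higher and 2 lower in WT cells. At 2 h 12 passed against 13.6% of all genes, with 10 lower in WT cells against 4.54% of all genes lower and 9.05% higher. Those 10 were all *MET* genes, and 7 of them belonged to the sulfate assimilation and homocysteine group. The differences were -2.09 for *MET3* (SE 0.23, adjusted p = 5.1e-05), -1.46 for *MET10* (SE 0.20, adjusted p = 0.00029), -1.54 for *MET14* (SE 0.39, adjusted p = 0.020) and -1.41 for *MET17* (SE 0.32, adjusted p = 0.010). The calls of *MET14* and *MET17* were each lost in 2 of the fits without 1 array. The 2 genes higher in WT cells were *ARO9*, by 0.95 (SE 0.24, adjusted p = 0.018), and *LEU9*, by 0.56 (SE 0.17, adjusted p = 0.047), of which *ARO9* lost its call in 2 and *LEU9* in 12 of the 16 fits without 1 array. The count of 12 was 7 and 6 without WT 2 h replicate 1 or 2 and 5 without *ime2Δ* 2 h replicate 2.

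By 4 h the difference had spread across the pathways. There were 35 genes lower and 1 higher in WT cells, where 31.2% of all genes passed, 14.2% lower and 16.9% higher. Of the 41 enzyme genes outside the sulfur group, 26 were lower and none higher. The count of 36 was 22 without *ime2Δ* 4 h replicate 1. At 6 h 36 were lower and 9 higher, where 64.2% of all genes passed, 33.1% lower and 31.1% higher. *LYS20*, *HOM3*, *ILV3* and *MET6* had the most negative differences, at -2.16, -1.97, -1.81 and -1.78. The median difference was -0.02, -0.21, -0.72 and -0.58 at 0, 2, 4 and 6 h, where those of all genes were 0.01, -0.03, -0.01 and -0.10. At 6 h the sulfur regulators *MET32*, *MET4* and *MET31* were on the other side. They were higher in WT cells by 2.79, 2.15 and 1.79 (SE 0.26, 0.21 and 0.19, adjusted p = 1.4e-06, 1.9e-06 and 3.9e-06). The sulfur regulators *MET28* and *MET30* were lower in WT cells, by -0.79 and -0.84 (SE 0.24 and 0.17, adjusted p = 0.012 and 0.0010). The *MET28* call was lost in 2 of the fits without 1 array. Early meiotic genes also differed between the strains, with 5, 5, 6 and 3 of the 10 higher in WT cells at 0, 2, 4 and 6 h and 1 lower at 6 h, and median differences of 1.13, 0.93, 1.17 and 0.25. Their part in these results was not tested.

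A difference in change from 0 h, tested as the interaction of strain and time, passed for 4 genes at 2 h, all with the smaller rise in WT cells, where 3.33% of all genes passed, 0.863% lower and 2.46% higher. These were *MET5*, *MET3*, *MET32* and *MET10*, with differences of -1.94, -1.92, -1.76 and -1.61 (SE 0.35, 0.33, 0.37 and 0.28, adjusted p = 0.0099, 0.0069, 0.022 and 0.0083). At 4 h 20 passed, all lower in WT cells, where 15.6% of all genes passed, 6.20% lower and 9.37% higher. At 6 h 27 were lower and 6 higher, where 50.1% of all genes passed, 25.1% lower and 25.0% higher. Among the genes that passed, the 4 most negative differences were those of *ILV3*, *MET17*, *LYS1* and *MET5* at 4 h, at -2.12, -2.11, -2.08 and -2.06 (SE 0.38, 0.45, 0.43 and 0.35), and those of *ILV3*, *LYS20*, *ILV2* and *ARO4* at 6 h, at -2.34, -2.31, -1.77 and -1.70 (SE 0.38, 0.55, 0.37 and 0.40). The 6 genes with the higher change in WT cells at 6 h were *MET4*, *MET32*, *ARO10*, *MET22*, *MET31* and *ARG82*. The count at 2 h was 1 without *ime2Δ* 0 h replicate 1, when only *MET3* of the 4 passed, and 8 without *ime2Δ* 0 h replicate 2. The count at 4 h was 9 without WT 0 h replicate 2, 12 without WT 4 h replicate 2, 8 without *ime2Δ* 0 h replicate 1 and 7 without *ime2Δ* 4 h replicate 1.

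**Figure D5:**
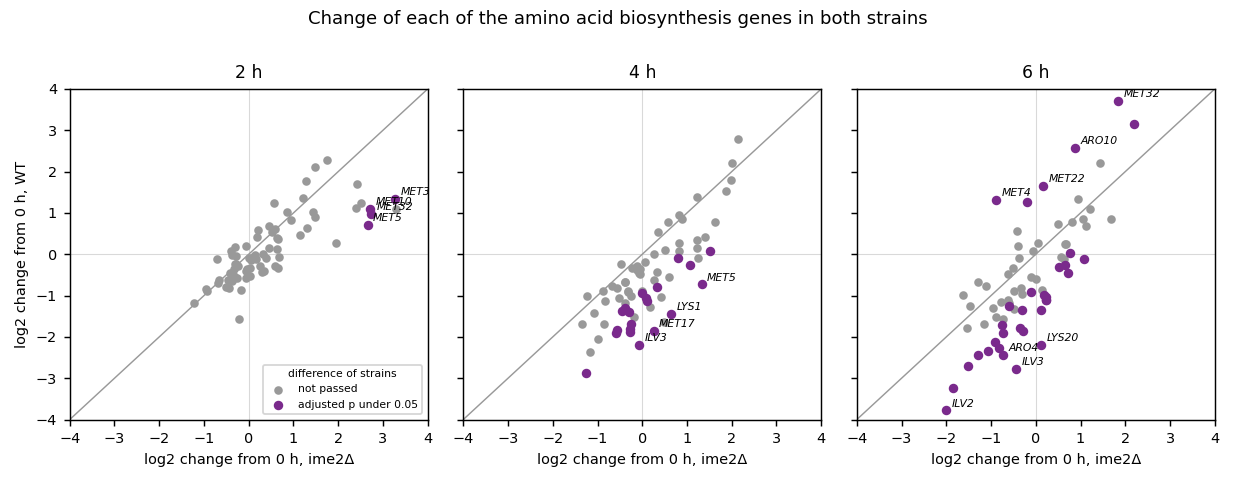
Log2 change from 0 h in WT (y axis) against that in *ime2Δ* (x axis) for each of the 71 genes at 2, 4 and 6 h, with purple points where the difference of the changes had an adjusted p under 0.05, the grey line where both changes are equal, and up to 4 genes named on each side of it. The purple points lie below the line at 2 and 4 h, and at 6 h 27 lie below and 6 above it.

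Genes of amino acid synthesis, amino acid uptake and sulfate uptake outside the naming rule were counted for comparison. Of 29 other biosynthetic genes, among them those for proline, serine, glutamate, asparagine and cysteine, 21 were lower and 2 higher at 4 h in WT cells and 18 were lower and 7 higher at 6 h, with medians of -1.23 and -1.36. In *ime2Δ* cells 16 were lower and 4 higher, and then 18 and 3, with medians of -0.60 and -0.91. Of all genes in *ime2Δ* cells, 26.9% were lower and 23.4% higher at 4 h, and 30.1% and 24.5% at 6 h. Of 15 permeases, among them the sulfate permeases *SUL1* and *SUL2*, 10 were lower and 1 higher at 4 h in WT cells. The 1 higher at 4 h was *SUL1*. At 6 h 7 permeases were lower and 6 higher. Of all genes, 31.8% were lower and 30.7% higher at 4 h in WT cells, and 35.7% and 35.3% at 6 h. *GAP1*, the general amino acid permease, fell by -3.06 at 6 h in WT cells (SE 0.24, adjusted p = 1.8e-07), and its change in *ime2Δ* cells was -0.12 (adjusted p = 0.70). Whether the probes of close paralogs such as *LYS20* and *LYS21* or *MET31* and *MET32* take up each other's signal was not tested.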

How the data were processed

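Scanner output of 16 single color Agilent arrays was used, grouped by the strain, time and replicate of each sample. The authors deposited spot intensity values from Agilent Feature Extraction 10.7.1.1, background-subtracted and detrended, with no scaling between arrays, and log2 values normalized to each array's median, which served as an alternative. The build behind the probes is not given in the sources used here. The main value is the mean log2 processed signal of a probe's 2 spots minus the array median. Spots marked as outliers, 0 to 13 per array, were dropped. Symbols came from RefSeq by systematic name, which matched 5756 of 6256 genes. *IME2* and *TRP1* were left out of the fits, as in the methods of the study.

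Comparisons used limma 3.58.1 (R 4.3.3) with lmFit and eBayes over all arrays, 8 residual and 4.58 prior degrees of freedom and Benjamini-Hochberg adjustment over 6254 genes. On simulated data with 200 genes changed by a log2 change of 2, 97.5% were recovered for WT cells at 2 h against 0 h, and 89.0% for the difference of the strains in that change. At a log2 change of 1, 52.5% and 1.00% were recovered, so many changes of this size were missed in that setting. The simulated errors were independent and only 200 genes changed, while 49.4% of all genes passed in the real WT comparison at 2 h. The recovered shares therefore do not carry over to the real comparisons. The number of arrays limits the precision.

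The genes and lists were chosen with earlier results of these data known. Named by rule were the 4 highest and 4 lowest changes in WT and *ime2Δ* cells at 2 h and WT cells at 6 h, the same for the strain differences at 2 and 6 h, the gene with the largest change of each pathway, the pathway regulators with *GCN4*, and 5 paralog pairs. Also named were the strongest differences of the strains in change from 0 h, picked from those that had passed. Other genes and the role groups were picked after their values were seen. Replicate numbers mark independent experiments on separate slides. Deviations of same-numbered arrays from their group means correlated over all genes at r between 0.0752 and 0.535 (median 0.224) in 28 pairs of groups, and 26 were over 0.1. Alternatives were 75th percentile scaling, quantile normalization, normexp with an offset of 50 (on median signals, since mean signals were not used here), the deposited log2 values, leaving out dim probes, the replicate number as a block, the culture as a random block, eBayes with trend and robust estimation, and leaving out each array. Promoter sequences were not analysed here.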

Additional observations from a re-analysis of the deposited data

Results flagged for a closer look

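The change from 0 h differed between WT and *ime2Δ* cells, by the interaction term, for 4, 20 and 33 of the 71 genes at 2, 4 and 6 h. Among the named genes, the difference of WT from *ime2Δ* in the log2 change to 2 h was -1.94 for *MET5*, -1.92 for *MET3*, -1.76 for *MET32* and -1.61 for *MET10*. For the change to 4 h it was -2.12 for *ILV3*, -2.11 for *MET17*, -2.08 for *LYS1* and -2.06 for *MET5*. For the change to 6 h it was -2.34 for *ILV3*, -2.31 for *LYS20*, -1.77 for *ILV2* and -1.70 for *ARO4*, and on the other side 1.49 for *MET22*, 1.69 for *ARO10*, 1.87 for *MET32* and 2.20 for *MET4*. No group had enough arrays for a test of single outlying arrays.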

How the results depend on the processing

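Of the named changes, 93 passed, and none of these changed direction under the alternatives run. The 93 include the strongest differences of the strains in change from 0 h, which were picked from those that had passed. Changes of other genes given above were not followed there. For *ime2Δ* cells at 6 h the split of 17 higher and 24 lower turned to 20 and 16 under 75th percentile scaling and was 16 and 16 under quantile normalization. The median change of the 71 genes turned from -0.04 to 0.22 and 0.17 under these scalings in WT cells at 2 h, and from -0.01 to 0.24 and 0.22 in *ime2Δ* cells at 4 h. Of the 93 named changes that passed, 75th percentile scaling lost 6, quantile normalization 8, normexp 7 and the culture block 1, and the deposited values, the dim probe filter, the replicate block and the eBayes option lost 0. Relative to the array median, 75th percentile scaling moved the median of all genes by 0.21 to 0.30 in 8 of 15 comparisons and quantile normalization by 0.11 to 0.19 in 4. The count at 0 h between the strains was 0, and was 6 with the replicate block and 1 with the eBayes option. The block moved no other count by over 1.5 times. The count of differences in change to 2 h was 4, and was 7 with the culture block. The cause was not tested.

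Leaving out 1 array gave these ranges of counts. In WT cells they were 16 to 33 at 2 h, 40 to 49 at 4 h, 47 to 53 at 6 h and 43 to 51 from 2 to 6 h. In *ime2Δ* cells they were 22 to 32, 21 to 34, 30 to 42 and 11 to 21. Between the strains they were 0 to 1 at 0 h, 5 to 13 at 2 h, 22 to 38 at 4 h and 38 to 45 at 6 h, and for the differences in change 1 to 8, 7 to 24 and 23 to 33. All 71 genes were well above background on every array.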
